A study of Mus musculus with 12 samples.

Results

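Livers of male mice conceived by in vitro fertilization (IVF) were compared with livers of male mice conceived by natural mating, and the difference was averaged over wild type (WT) and Atf7-/- animals. All 12 arrays of the series were members, 6 from IVF and 6 from natural mating, and 1 linear model with 4 group means was fitted to all 34760 probe sets. The averaged IVF effect of a probe set is the mean of its difference in WT and its difference in Atf7-/-, on the log2 scale, where 1 is a 2-fold change. A probe set was called where limma's adjusted p did not exceed 0.05 and the effect was at least 0.6 in either direction, the thresholds of the study's methods.

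Each group held 3 livers, 1 array per animal, at 4 weeks of age per the labels, whereas the study's methods give a younger age. All mice were of the C57BL6/JJmsSlc background. Atf7-/- animals lack ATF7, a stress-responsive transcription factor of the ATF2 family, and came from Atf7-/- parents of both sexes. IVF embryos came from superovulated donors, were fertilized and cultured in HTF medium, and were moved at cleavage stage into pseudopregnant ICR females, which bore the pups. Natural mating pups were born to C57BL6 mothers of their own genotype. Fertilization in vitro, culture, superovulation, embryo transfer and an ICR rather than C57BL6 birth mother therefore cannot be told apart. Within a group, no livers shared a mother or recipient. The hour of dissection is not given in the sources used here.

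Hepatocytes make most plasma proteins, bile acids and lipoproteins, clear drugs, and switch between storing and burning fat and sugar with feeding. Many of these functions follow a circadian clock, in which ARNTL and CLOCK switch on the Per, Cry, Nr1d1 and Dbp genes through E-box sequences, and the products of Per, Cry and Nr1d1 feed back on the activators. Assisted conception is studied in liver because culture of the early embryo may leave lasting marks on such programmes.

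The targeted gene followed the genotype labels. On 1 Atf7 probe set the 6 WT arrays were at or above 7.56 and the 6 Atf7-/- arrays at or below 6.11, with an averaged IVF effect of -0.59 (SE 0.13, adjusted p = 0.0147), just short of the fold threshold. A further Atf7 probe set separated the genotypes less, with a lowest WT value of 8.70 and a highest Atf7-/- value of 8.72, and where the probe sets lie relative to the deleted part was not analysed here. Hepatocyte markers had a mean level of 12.61 to 12.89 on all 12 arrays, and exocrine pancreas markers of 5.4 to 5.60. In Atf7-/- the hepatocyte level was 12.61 to 12.72 with IVF and 12.84 to 12.89 without, and in WT 12.72 to 12.84 and 12.69 to 12.86. Array medians ranged from 6.22 to 6.34, and the IVF arrays differed by -0.03 from the natural mating arrays (exact two-sided permutation test within genotypes, p = 0.14, smallest possible p 0.005). The genotypes were not alike in this. In WT the medians were 6.22 to 6.27 with IVF and 6.30 to 6.34 without, with no overlap. In Atf7-/- they were 6.26 to 6.31 and 6.26 to 6.28. A shift within 1 genotype was not tested.

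IVF was followed by changes of similar number in both directions. In the averaged effect 568 probe sets were called higher (1.63% of all) and 557 lower (1.6%). Counting 1 probe set per gene, 288 of 19937 genes were called higher (1.44%) and 261 lower (1.31%), and the median effect over all genes was -0.02. No gene symbol was given for 27.1% of the probe sets called higher and 44.7% of those called lower. All 6 IVF arrays lay above all 6 natural mating arrays in 273 of the probe sets called higher, and below them in 230 of those called lower, against 2.68% and 2.44% of all probe sets. Leaving out each of the 12 arrays in turn kept 324 of the higher and 313 of the lower calls throughout.

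An average can hide genotypes that differ, so the difference itself, Atf7-/- minus WT, was tested for every probe set. It was called above 0 in 945 probe sets (2.72%) and below 0 in 1203 (3.46%), among them 102 of the 568 called higher in the average and 111 of the 557 called lower. For the other averaged calls a difference between genotypes was not detected, which does not show equal effects, since its median SE of 0.19 was larger than that of the averaged effect, 0.09. Its 95% interval lay within the fold threshold of 0.6 on both sides for only 65 of the higher and 39 of the lower calls. Tested alone, WT gave 989 higher (2.85%) and 582 lower calls (1.67%), and Atf7-/- 1136 (3.27%) and 1220 (3.51%). These contrasts share no array. Both called 124 probe sets higher, which is 12.5% of the WT and 10.9% of the Atf7-/- calls and 0.357% of all probe sets. Both called 97 lower, 16.7% of the WT and 7.95% of the Atf7-/- calls and 0.279% of all. Another 113 (0.325%) were called in opposite directions, so that most of their effect cancels in the mean. Over all probe sets the effects in WT and Atf7-/- correlated with Pearson's r = 0.133, a description across probe sets, which are not independent.

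**Figure D1:**
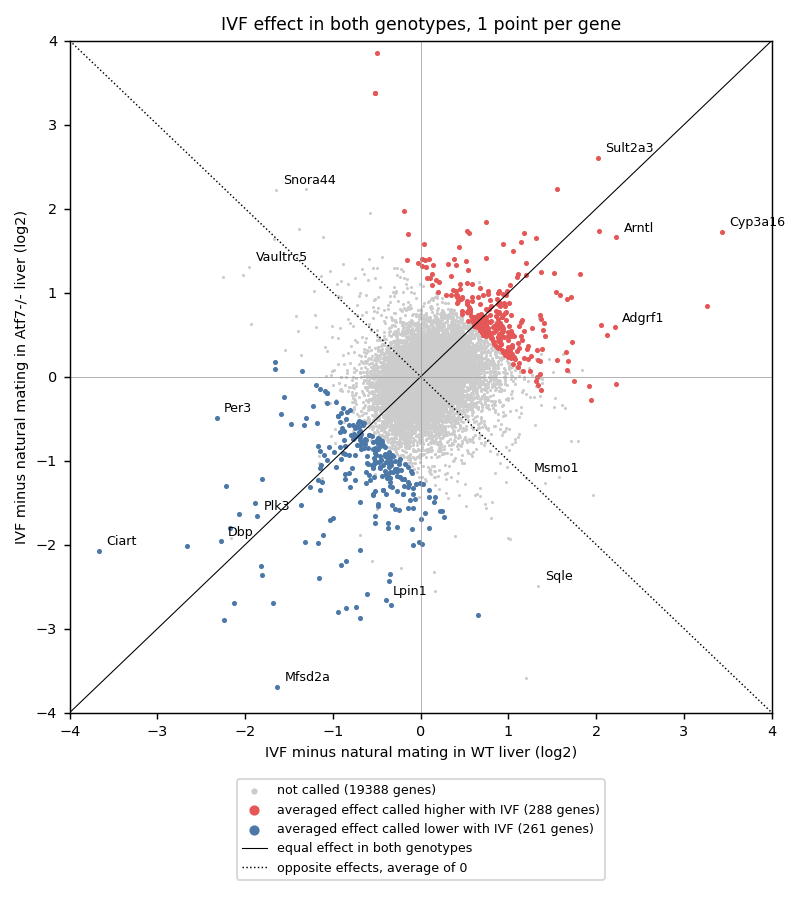
IVF minus natural mating in WT (horizontal axis, log2) against the same difference in Atf7-/- (vertical axis, log2), 1 point per gene, with the 288 genes called higher and 261 called lower in the average coloured. The solid diagonal marks equal effects and the dotted one opposite effects with an average of 0, where no gene can be called. A difference between genotypes was called for 43 of the genes called higher and 75 of those called lower.

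A named probe set may read a copy of its gene elsewhere in the genome. Probe sets on this array are numbered along the chromosomes, so the chromosome of the 10 nearest annotated probe sets on each side was compared with the gene's own in RefSeq GRCm38.p6. For 252 of 19918 genes (1.27%), and 32 of the 549 called genes, at least 80% of the neighbours lay on 1 other chromosome. Where this touches a gene below, it is stated with the value of the probe set on the gene's own chromosome. In bulk liver, fewer cells of a type and less RNA per cell cannot be told apart.

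The largest rises and falls were picked among called genes whose IVF and natural mating arrays did not overlap within either genotype. Lack of overlap in these genes is therefore partly set by the choice. Among the genes with the largest rises, steroid- and drug-handling enzymes were on top. Cyp3a16, a P450 enzyme that livers of juveniles and females express, ranged from 5.87 to 8.22 (median 7.71) on the 6 IVF arrays and from 4.25 to 5.22 (median 4.69) after natural mating. Its averaged effect was 2.58 (SE 0.35, adjusted p = 0.00120). No IVF array overlapped the natural mating arrays, and the Atf7-/- IVF arrays held both the lowest and the highest IVF value. Sult2a3, a sulfotransferase of steroids and bile acids, read 6.46 to 7.5 (median 6.74) with IVF and 3.59 to 6.01 (median 4.32) without, an effect of 2.31 (SE 0.36, adjusted p = 0.00240). Both genes have close relatives in their families, and shared probes cannot be told apart here. Cyp2c37, a fatty acid-oxidizing P450, rose by 1.28 (SE 0.27, adjusted p = 0.0106).

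Other large rises were those of genes of other function. Clpx, the mitochondrial unfoldase that activates ALAS enzymes and feeds the CLPP protease, lay between 10.11 and 10.54 (median 10.44) with IVF and 8.47 and 9.37 (median 9.0) after natural mating, an effect of 1.38 (SE 0.13, adjusted p = 3.14e-04). Amy1, the amylase made in liver and salivary gland, was at 10.56 to 11.03 (median 10.78) against 9.18 to 9.82 (median 9.29), an effect of 1.37 (SE 0.11, adjusted p = 1.41e-04). For neither gene did the groups overlap. Gpm6a, a membrane glycoprotein best known in neurons, rose by 1.33 (SE 0.11), Lrtm1 by 1.89 (SE 0.22), Lonrf3 by 1.49 (SE 0.15) and Hmgn5, a nucleosome-binding protein, by 1.27 (SE 0.20). Chic1, a cysteine-rich membrane protein, rose by 1.52 (SE 0.14), and Ppbp, a platelet chemokine, by 1.34 (SE 0.31). Atp5md, a small subunit of ATP synthase, rose by 1.28 (SE 0.10) on a probe set numbered among chromosome X genes and by 1.27 (SE 0.12) on the probe set of its own chromosome, 19.

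For 2 of these rises the average needs a qualification. Adgrf1, an adhesion G protein-coupled receptor, rose by 1.40 (SE 0.08, adjusted p = 5.26e-05), from an effect of 2.21 in WT and 0.59 in Atf7-/-, with a called difference of -1.62. Dmbt1, a secreted scavenger protein of mucosa, read 5.13 to 8.32 with IVF and 4.90 to 5.24 without, an effect of 1.89 (SE 0.48, adjusted p = 0.0235). The Dmbt1 call was lost without Atf7-/- IVF replicate 3 (effect 1.62, adjusted p = 0.0540), Atf7-/- natural mating replicate 1 (adjusted p = 0.0510) or 3 (adjusted p = 0.0502), or WT IVF replicate 1 (adjusted p = 0.0531) or 3 (effect 1.77, adjusted p = 0.0567).

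Falls were led by lipid, drug and heme genes beside the clock genes described next. The smallest adjusted p of all named genes was that of Plk3, a stress-induced kinase, at 7.37 to 7.68 (median 7.54) with IVF and 9.02 to 9.48 (median 9.34) without. Its effect was -1.76 (SE 0.09, adjusted p = 1.95e-05), and the gap between the groups was wider than the range of either. Nrg4, a growth factor that fat tissue and liver release, was at 5.19 to 6.11 (median 5.97) against 7.21 to 8.70 (median 7.60), an effect of -1.99 (SE 0.19, adjusted p = 2.82e-04). Ces1f, a liver carboxylesterase, fell by 2.08 (SE 0.19, adjusted p = 2.45e-04). Cyp2c38 fell by 2.34 (SE 0.46, adjusted p = 0.00752), from natural mating arrays at 7.16 to 10.08, the lowest of them just above the IVF range of 5.64 to 7.08.

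Some large falls were unequal in size between genotypes. Mfsd2a, a transporter of lysophospholipid-bound omega fatty acids that fasting induces in liver, ranged from 6.34 to 8.61 (median 7.40) with IVF and from 9.48 to 10.96 (median 10.11) without, an effect of -2.66 (SE 0.27, adjusted p = 3.52e-04). It had -1.64 in WT and -3.69 in Atf7-/-, a called difference of -2.05. The difference kept its call without Atf7-/- IVF or natural mating replicate 1 or replicate 2 of either WT group, and lost it without each of the other 8 arrays (-2.06 to -1.79, adjusted p = 0.0687 to 0.0987). Serinc2, a membrane protein of the serine incorporator family, had an averaged effect of -1.60 (SE 0.16) made of -0.61 in WT, which was not called, and -2.59 in Atf7-/-.

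**Figure D2:**
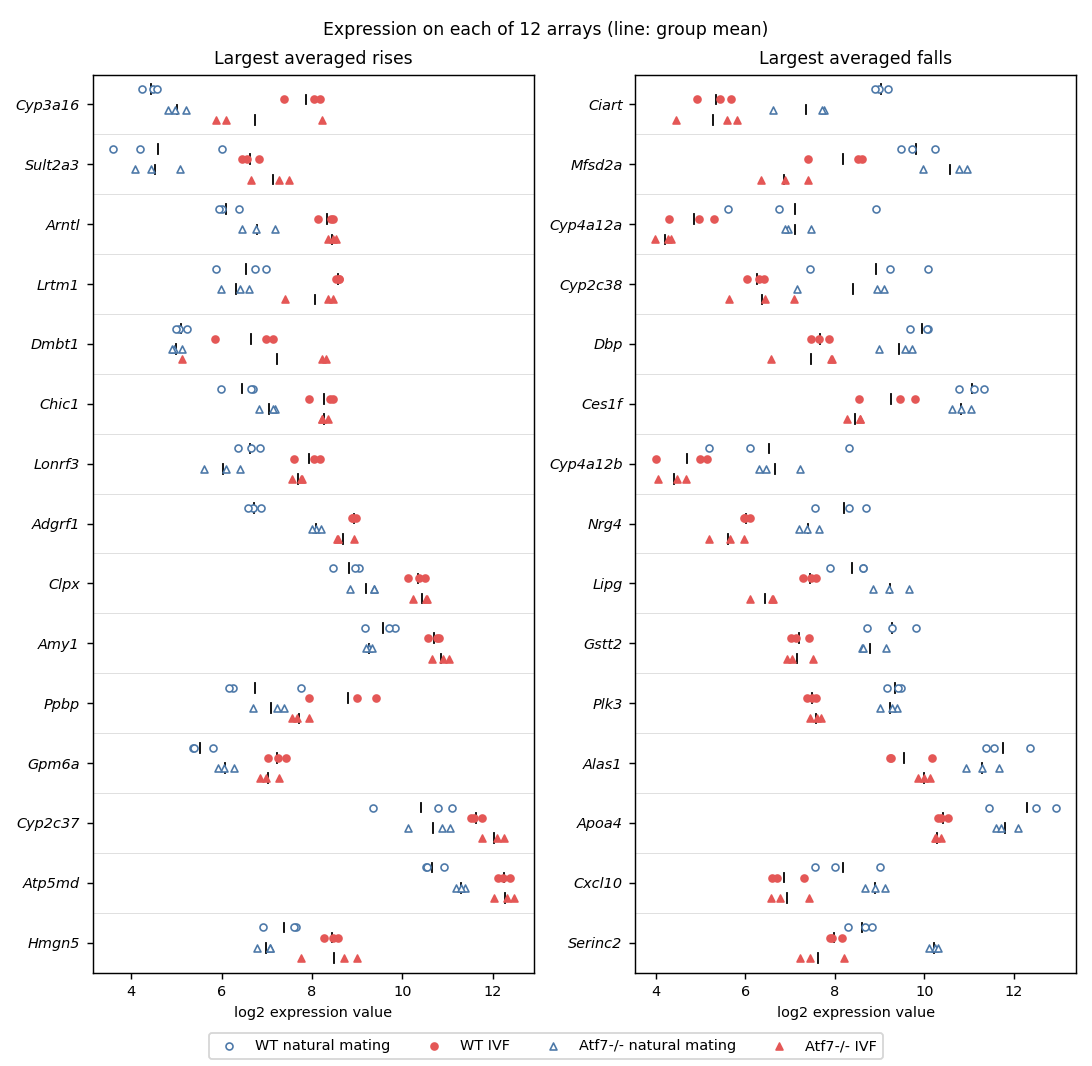
Log2 expression on each of the 12 arrays (horizontal axis) for 15 averaged rises (left) and 15 falls (right), with symbols for the 4 groups and a line at each group mean. They are the largest among called genes whose IVF and natural mating arrays did not overlap within either genotype. Predicted genes, small nucleolar RNAs and some other classes were left out. Adgrf1 and Serinc2 show an unequal shift in the genotypes, whereas the 6 IVF arrays of Plk3 lie between 7.37 and 7.68 and its 6 natural mating arrays between 9.02 and 9.48.

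For some calls the difference between WT and Atf7-/- was bounded within the fold threshold. Genes were singled out for the largest averaged effects among calls whose 95% interval of the difference lay within 0.6 on both sides. The intervals below follow from that choice, and they still allow unequal effects. Lpin2, a phosphatidate phosphatase, lay at 9.43 to 9.88 (median 9.68) with IVF and 10.38 to 10.78 (median 10.48) without, an effect of -0.89 (SE 0.07, adjusted p = 1.15e-04). Its difference between genotypes was -0.06, with a 95% interval of -0.37 to 0.24. Aldoa, an aldolase of glycolysis, fell by 0.90 (interval of the difference -0.37 to 0.30), and Zfp36, which destabilizes mRNAs of cytokines, by 0.87 (-0.51 to 0.26). Ndufaf1, an assembly factor of respiratory complex I, rose by 0.97 (-0.34 to 0.34), Chka, the choline kinase, by 1.06 (-0.41 to 0.57), and Eif3m, a subunit of a translation initiation factor, by 0.87 (-0.49 to 0.35). For none of these 6 did any IVF array overlap a natural mating array. Rpl38, a ribosomal protein, also met the rule with 0.95, but on a probe set numbered among chromosome 6 genes. The Rpl38 probe set on its own chromosome, 11, gave 0.03 (SE 0.10).

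Core clock genes moved in both directions with IVF. Of 5 measured activators and genes in their phase, 3 were called higher and 1 lower (median effect 0.85), and of 18 Period genes and other genes in the phase of Dbp, none was called higher and 9 lower (median -0.72). The choice of these lists was made with clock results of the same arrays known, so their direction is a description. The promoters of Arntl, Ciart, Per1 and Per3 are shown because these genes had the largest clock effects of their kind or differed between the genotypes, and because their promoters hold the sequences through which clock factors act. Each runs from 250 bases before to 50 bases after the transcription start in RefSeq GRCm38.p6, in the direction of the gene, with motif matches in capitals. Those are the ROR element (AA, any base, T, any base, GGTCA) in Arntl (chr7:113207261-113207560, plus strand), the E-box CACGTG in Ciart (chr3:95882179-95882478, minus strand) and Per1 (chr11:69098699-69098998, plus strand), and the D-box (TTATG, any base, AA) in Per1 and Per3 (chr4:151044616-151044915, minus strand).
Arntl: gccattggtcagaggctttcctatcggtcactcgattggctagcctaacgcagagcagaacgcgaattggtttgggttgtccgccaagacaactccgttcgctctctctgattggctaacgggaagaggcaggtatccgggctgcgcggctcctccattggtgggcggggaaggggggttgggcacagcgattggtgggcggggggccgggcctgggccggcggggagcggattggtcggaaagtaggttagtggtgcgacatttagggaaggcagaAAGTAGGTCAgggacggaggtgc
Ciart: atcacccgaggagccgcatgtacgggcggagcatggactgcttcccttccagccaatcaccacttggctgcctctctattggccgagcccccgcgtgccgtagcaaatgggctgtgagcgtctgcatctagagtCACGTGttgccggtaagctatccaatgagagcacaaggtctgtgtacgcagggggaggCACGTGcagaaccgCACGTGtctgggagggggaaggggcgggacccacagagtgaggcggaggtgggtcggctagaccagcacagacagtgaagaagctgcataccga
Per1: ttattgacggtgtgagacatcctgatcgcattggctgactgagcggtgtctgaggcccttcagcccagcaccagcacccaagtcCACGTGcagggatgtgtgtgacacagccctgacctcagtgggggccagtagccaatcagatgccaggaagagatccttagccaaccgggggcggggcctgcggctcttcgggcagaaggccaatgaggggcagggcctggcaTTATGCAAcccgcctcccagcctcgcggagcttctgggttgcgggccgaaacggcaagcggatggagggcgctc
Per3: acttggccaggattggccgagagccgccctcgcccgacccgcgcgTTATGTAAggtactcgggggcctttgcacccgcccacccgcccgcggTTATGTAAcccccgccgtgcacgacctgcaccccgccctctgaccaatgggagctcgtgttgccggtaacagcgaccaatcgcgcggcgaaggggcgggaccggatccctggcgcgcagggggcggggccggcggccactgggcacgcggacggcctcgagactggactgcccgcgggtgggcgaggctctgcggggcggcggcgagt

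Counted from the start site, the Arntl match begins at base 28. Ciart holds 3 E-boxes, which begin at -116, -58 and -44. Per1 holds an E-box at -166 and a D-box at -24, and Per3 a pair of D-boxes at -205 and -158. Arntl and Per1 have 2 listed starts each, of which the one with more of these motifs is shown. Both strands were searched, and the E-box reads the same on both. None of the 3 motifs overlaps another in these 4 promoters. The choice favoured promoters with a match. In the same window Dbp, Nr1d1, Usp2, Nfil3 and each listed start of Clock held none of the 3 motifs, while Cry1 held 1 E-box. Over 19176 RefSeq promoters of 15613 genes on the array, 8.24% hold the E-box, 3.0% the D-box and 0.495% the ROR element. Among 264 promoters of genes called lower the E-box was in 14% and the D-box in 3.41%, and among 257 of genes called higher in 8.95% and 6.23%. The ROR element was in 4 promoters of genes called higher and in 0 of the 264 of genes called lower. The core TGACG of the cAMP response element, which factors of the ATF2 family bind, was in 25.0% of all promoters, 31.9% of those of genes called higher and 29.2% of those called lower. The full element (TGACG followed by TCA, which holds the core) was in 2.37%, 1.95% and 1.52%. These shares were not tested, and a match is not a bound site.

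Arntl, which encodes BMAL1, the partner of CLOCK, read 8.14 to 8.53 (median 8.44) on the IVF arrays and 5.94 to 7.17 (median 6.41) on the natural mating arrays. All 6 IVF arrays were higher, by an averaged 1.94 (SE 0.13, adjusted p = 6.45e-05), and no difference between genotypes was called (-0.57, 95% interval -1.13 to -0.02, adjusted p = 0.211). Cry1, a repressor of late clock phase, rose by 0.85 (SE 0.14) and Nfil3, which represses D-box genes, by 0.89 (SE 0.19). Gys2, the liver glycogen synthase and a BMAL1 target, fell by 1.02 (SE 0.13). Clock itself, with an averaged 0.41, was not called: it rose by 0.88 in WT and read -0.05 in Atf7-/-, a called difference of -0.93.

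Of the repressor arm, Ciart, a repressor of CLOCK and BMAL1, had the largest fall of all named genes. It lay at 4.45 to 5.83 (median 5.51) with IVF and 6.61 to 9.19 (median 8.32) without, an effect of -2.87 (SE 0.27, adjusted p = 2.55e-04). That probe set is numbered among chromosome 10 genes, and the one on Ciart's own chromosome, 3, gave -2.38 (SE 0.18, adjusted p = 1.04e-04), with IVF arrays at 5.12 to 5.74 and natural mating arrays at 6.79 to 8.64. Dbp, a PAR-domain factor that binds D-boxes and drives detoxification genes, was at 6.57 to 7.93 (median 7.76) against 9.0 to 10.09 (median 9.71), an effect of -2.12 (SE 0.23, adjusted p = 4.77e-04). Nr1d1, the nuclear receptor that represses Arntl, fell by 1.35 (SE 0.20), and Usp2, a rhythmic deubiquitinase, by 1.51 (SE 0.13).

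The 3 Period genes, whose proteins inhibit CLOCK and BMAL1, all fell in the average but not alike. Per1 read 6.73 to 7.63 (median 7.19) with IVF and 8.36 to 8.95 (median 8.76) without, an effect of -1.58 (SE 0.10, adjusted p = 6.39e-05). It fell more in Atf7-/- (-1.99) than in WT (-1.18), and the difference of -0.81 was called (adjusted p = 0.0319), but not without 8 of the 12 arrays, all but Atf7-/- IVF replicate 1 and the WT natural mating arrays (adjusted p = 0.0536 to 0.0786). Per2 (averaged -1.02, SE 0.10) fell by 1.48 in WT and read -0.57 in Atf7-/-, a called difference of 0.91 that was lost without Atf7-/- IVF replicate 3, Atf7-/- natural mating replicate 1 or 3, or WT IVF replicate 1 or 3 (adjusted p = 0.0544 to 0.0619). Per3 (averaged -1.41, SE 0.16) fell by 2.32 in WT and read -0.49 in Atf7-/-, where it was not called (adjusted p = 0.192), a difference of 1.83 (adjusted p = 0.00714). For Per3 the IVF means were nearly equal, 7.44 in WT and 7.5 in Atf7-/-, while the natural mating means were 9.76 and 8.0.

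**Figure D3:**
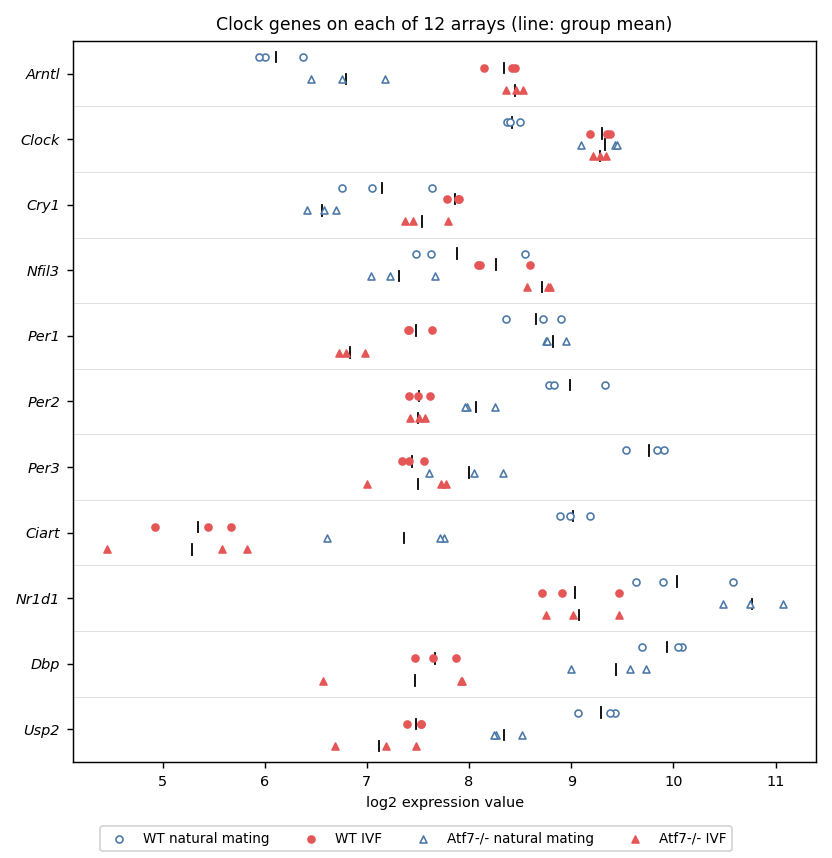
Log2 expression of 11 clock genes on each of the 12 arrays (horizontal axis), with symbols for the 4 groups and a line at each group mean. Arntl is higher on all 6 IVF arrays, Per1, Dbp, Usp2 and Ciart are lower on all 6, and for Per3 the natural mating groups stand apart while the IVF groups lie close together.

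The gene lists of liver function that follow are described by their called members and their median, beside the 1.44% higher and 1.31% lower among all genes. No list was tested as a set. Where no array is named, the averaged calls of genes in the following paragraphs held without each of the 12 arrays in turn. The rises of small nucleolar RNAs are an exception. Calls of the difference between genotypes were made for 33 of the genes named in the text, and 25 of them held without each array. Those of Per1, Per2, Mfsd2a, Pltp, Cyp7a1, Usp18, Mest and Sqle did not. Of 89 calls in WT alone 61 held without each array, and of 108 in Atf7-/- alone 80. The WT calls of Mfsd2a, Cyp7a1, Mest, Msmo1 and Hmgcs1 and the Atf7-/- calls of Msmo1, Sqle and Srebf2 were among those lost without 1 or more arrays. Others were gained, among them the WT call of Serinc2 without Atf7-/- IVF replicate 2, the Atf7-/- call of Adgrf1 without Atf7-/- IVF replicate 1 or 3 or Atf7-/- natural mating replicate 2, and the Atf7-/- call of Hmgcs1 without Atf7-/- IVF replicate 2 or WT natural mating replicate 3.

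**Figure D4:**
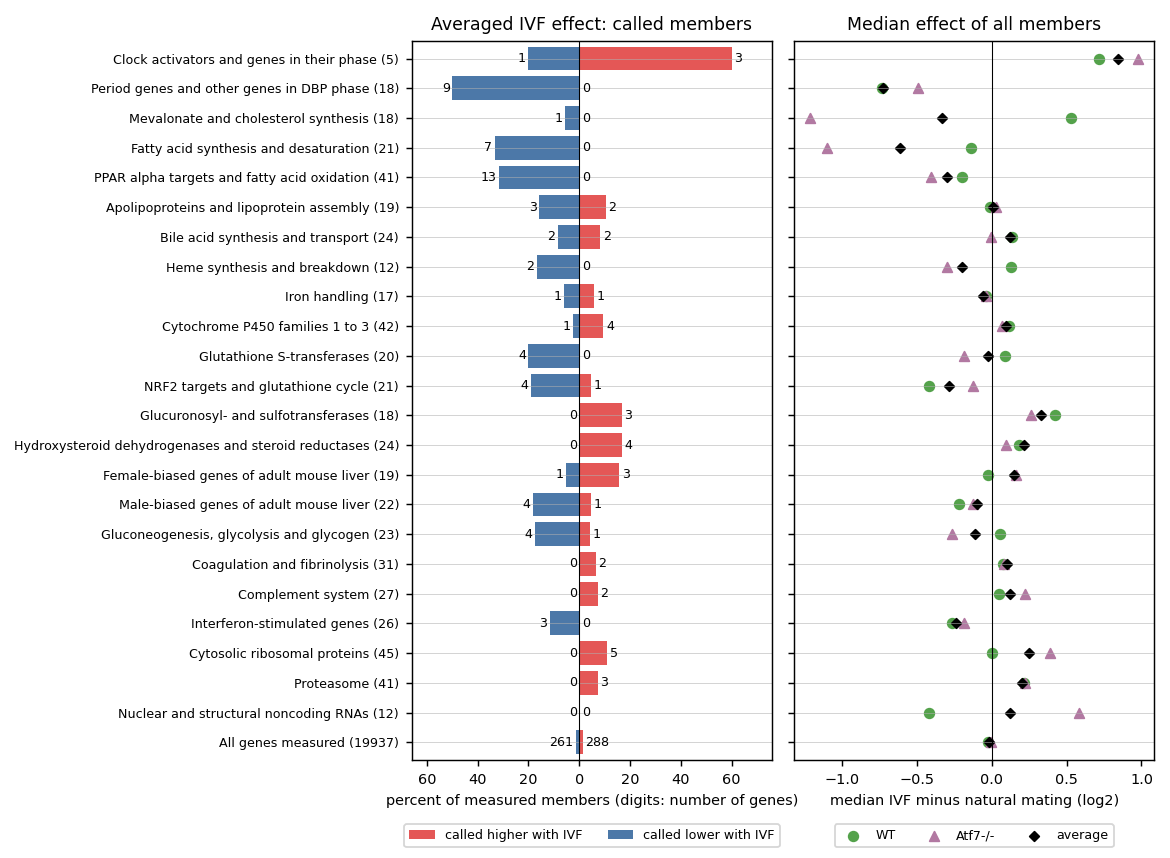
Percent of measured members of each gene list called higher (right) or lower (left) in the averaged effect, with the number of genes at the bars (left panel), and the median IVF effect of all measured members in WT, in Atf7-/- and in the average (right panel, log2). The number of measured members is in brackets; for mevalonate and cholesterol synthesis the WT median is 0.53 and the Atf7-/- median -1.21.

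Genes of fatty acid oxidation controlled by the nuclear receptor PPAR alpha were lower with IVF where they were called. Of 41 measured, 13 were called lower and none higher, and the median was -0.30. Vnn1, a pantetheinase, read 7.90 to 9.30 (median 8.86) with IVF and 9.03 to 11.36 (median 10.71) without, an effect of -1.75 (SE 0.28, adjusted p = 0.00296). Acot2, a mitochondrial acyl-CoA thioesterase, had -1.81 (SE 0.27), Acot3, a peroxisomal one, -1.12 (SE 0.22), and Acot1, a cytosolic one, -1.02 (SE 0.20). For Acot3 no IVF array (7.15 to 7.87) overlapped a natural mating array (8.06 to 9.62). Cyp4a12a, an omega-hydroxylase of fatty acids that is also a marker of male liver, fell by 2.57 (SE 0.45, adjusted p = 0.00399) and its near-identical neighbour Cyp4a12b by 2.04 (SE 0.45), a pair that may share probe signal. Cpt1a, the gate of mitochondrial fat entry, and Fgf21, a hormone of fasting, were not called (-0.56 and -0.89). Both were called without WT natural mating replicate 3, at -0.73 and -1.24.

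Fatty acid synthesis had 7 of 21 measured genes called lower and none higher, with a median of -0.61. The count was 11 without Atf7-/- IVF replicate 2 and 4 without Atf7-/- IVF replicate 3, WT IVF replicate 3 or WT natural mating replicate 1 or 3. A member was called higher without WT IVF replicate 2. In Atf7-/- alone 11 were called lower (7 without Atf7-/- IVF replicate 3 or Atf7-/- natural mating replicate 2) against 1 in WT. Over all genes 4% were called lower in Atf7-/- and 0.953% in WT. The difference was called in 3 of the 21, all below 0, against 4.23% of all genes. Its count was 10 without Atf7-/- IVF replicate 2 and 5 without WT natural mating replicate 3. Fads2, the delta desaturase that starts the synthesis of long polyunsaturated fatty acids, was at 12.04 to 12.32 (median 12.21) with IVF and 12.68 to 13.10 (median 12.93) without. Its effect of -0.72 (SE 0.08, adjusted p = 4.99e-04) differed between genotypes by only -0.07 (95% interval -0.42 to 0.29). Gpam, which starts glycerolipid synthesis, fell by 0.88 (SE 0.20). Lpin1, a phosphatidate phosphatase and coactivator, had -1.53 (SE 0.16) in the average but -0.40 in WT, which was not called, and -2.66 in Atf7-/-. Acacb, the carboxylase that makes malonyl-CoA at mitochondria, had -1.53 (SE 0.38, adjusted p = 0.0199), and its call was lost without Atf7-/- natural mating replicate 2 (-1.39, adjusted p = 0.0506). Fasn and Scd1, fatty acid synthase and the main stearoyl-CoA desaturase, were not called (-1.09 and -0.49). Without Atf7-/- IVF replicate 2 they were, at -1.5 (adjusted p = 0.0207) and -0.75 (adjusted p = 0.00117).

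Of 19 measured genes of lipoprotein assembly and turnover, 2 were called higher and 3 lower. Apoa4, an apolipoprotein made in gut and in fasting or fatty liver, read 10.24 to 10.53 (median 10.34) on the IVF arrays and 11.44 to 12.95 (median 11.90) on the natural mating arrays. It fell by 1.70 (SE 0.21, adjusted p = 7.81e-04), and the IVF arrays were closer to each other than the natural mating arrays were. Pltp, which moves phospholipids between lipoproteins, fell by 1.58 (SE 0.14) and Lipg, the endothelial lipase, by 1.87 (SE 0.17). Both fell more in Atf7-/-, with called differences of -1.34 and -1.86. The former missed the threshold without Atf7-/- IVF replicate 3 or WT IVF replicate 1 (adjusted p = 0.0516 and 0.0501). Lpl, lipoprotein lipase, which liver loses after birth, rose by 0.82 (SE 0.16). Apom, the sphingosine phosphate carrier of HDL, rose by 0.68 (SE 0.08) in the average, from 0.07 in WT, not called, and 1.30 in Atf7-/-.

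Of 13 measured regulators of sterol synthesis and uptake, 1 was called higher and 1 lower, with a median of -0.20 and 11 effects below 0. The fall was that of Insig1, which like its relative Insig2 holds SREBP factors in the endoplasmic reticulum. Insig1 was at 10.25 to 11.47 (median 11.05) with IVF and 11.15 to 12.51 (median 11.61) without, with overlap, an effect of -0.77 (SE 0.22, adjusted p = 0.0380). Its call was lost without 9 of the 12 arrays, all but Atf7-/- IVF replicate 2 and WT natural mating replicates 1 and 2, and the list's count of falls ranged from 0 to 2. Insig2 was at 11.32 to 11.75 (median 11.56) with IVF and 9.77 to 11.02 (median 10.61) without, an effect of 1.03 (SE 0.14, adjusted p = 0.00121). Of 24 measured genes of bile acid synthesis and transport, 2 were called higher and 2 lower. Abcc3, which exports bile acids into blood, read 9.13 to 9.64 with IVF and 9.74 to 11.13 without, an effect of -1.2 (SE 0.20, adjusted p = 0.00311). Slco1a4, an uptake transporter, rose by 0.87 (SE 0.17). Cyp8b1, which sets the cholic acid share, fell by 0.70 (SE 0.16) and missed the fold threshold without Atf7-/- IVF replicate 2 (-0.59). Akr1d1, the reductase of the bile acid A ring, rose by 0.61 (SE 0.08) and fell below the threshold without Atf7-/- IVF replicate 3, Atf7-/- natural mating replicate 1 or WT natural mating replicate 2 (0.57 to 0.58). Cyp7a1, whose product limits the making of bile acids, was not called in the average (-0.53). It fell by 2.25 in WT and read 1.18 in Atf7-/-, a called difference of 3.43. That difference was lost without 7 arrays, Atf7-/- IVF replicate 1 or 3, Atf7-/- natural mating replicate 1 or 2, WT IVF replicate 1 or 3 and WT natural mating replicate 2 (3.06 to 3.53, adjusted p = 0.0551 to 0.0726).

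Heme and iron genes had few calls, some of them large. Alas1, the rate-limiting enzyme of liver heme synthesis, was at 9.23 to 10.16 (median 9.93) with IVF and 10.93 to 12.35 (median 11.47) without. All IVF arrays were lower, with an averaged effect of -1.76 (SE 0.21, adjusted p = 7.16e-04). Hmox1, which breaks heme down, fell by 0.75 (SE 0.10, difference between genotypes 0.03, 95% interval -0.40 to 0.46). The other 10 of 12 measured heme genes were not called, but 1 of them was called higher without Atf7-/- IVF replicate 3, Atf7-/- natural mating replicate 2, WT IVF replicate 3 or WT natural mating replicate 2 or 3. Tfrc, the transferrin receptor, read 8.21 to 9.43 (median 9.02) with IVF and 7.05 to 8.75 (median 7.5) without, an effect of 1.30 (SE 0.27, adjusted p = 0.00912), with overlap between the groups. Tfrc also marks erythroid cells, and the mean of the 9 measured erythroid markers ranged from 6.91 to 7.40 in WT and 7.02 to 7.06 in Atf7-/- with IVF, against 6.59 to 7.11 and 6.69 to 6.86 without. The part of erythroid cells in the Tfrc value was not tested. Ftl1, ferritin light chain, gave -1.25 (SE 0.12, adjusted p = 2.82e-04), but its only probe set is numbered among chromosome 17 genes and the gene lies on 7. Hamp, the iron hormone hepcidin, ranged from 4.94 to 11.11 with IVF and 7.42 to 12.85 without, too widely for a call (-2.04, SE 1.12).

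Drug metabolism was mixed. Of 42 measured cytochrome P450 genes of families 1 to 3, 4 were called higher and 1 lower (2 without WT natural mating replicate 3), with a median of 0.09. Cyp2c70, which makes mouse muricholic acids, was called higher by 0.67 (SE 0.12) but missed the fold threshold without WT natural mating replicate 2 (0.59). Of 20 glutathione S-transferases 4 were called lower, and 2 without Atf7-/- natural mating replicate 3 or WT IVF replicate 1. Gstt2 lay at 6.93 to 7.51 (median 7.09) with IVF and 8.61 to 9.81 (median 8.93) without, an effect of -1.85 (SE 0.19, adjusted p = 3.43e-04), and Gstp1 fell by 1.02 (SE 0.16). Of 21 targets of the antioxidant factor NRF2, 4 were called lower and 1 higher. Oplah, the oxoprolinase of the glutathione cycle, fell by 0.82 (SE 0.09) and Ephx1, the microsomal epoxide hydrolase, by 1.04 (SE 0.18), while Ggct, which makes oxoproline, rose by 0.87 (SE 0.09). Of 18 glucuronosyl- and sulfotransferases 3 were called higher, among them Sult1d1 by 0.71 (SE 0.10). Akr1c6, a hydroxysteroid dehydrogenase, rose by 0.77 (SE 0.09) and its relative Akr1c20 by 0.94 (SE 0.13). Cyb5r3, which passes electrons to cytochrome b5, fell by 0.73 (SE 0.07) in the average, from -0.15 in WT, not called, and -1.31 in Atf7-/-.

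Genes that differ between the sexes in adult mouse liver under growth hormone control were looked at although all mice were male. Of 19 measured female-biased genes, 3 were called higher and 1 lower (median 0.15), and of 22 male-biased genes, 1 was called higher and 4 lower (median -0.10). The female-biased falls were 2 without Atf7-/- IVF replicate 1 or WT natural mating replicate 3, and the male-biased rises 2 without WT natural mating replicate 3 or WT IVF replicate 2. Cyp3a16 and Cyp4a12a, described above, are in these lists. Hao2, a peroxisomal hydroxy acid oxidase, rose by 0.89 (SE 0.15), and Mup3, a major urinary protein, fell by 0.92 (SE 0.20). Mup genes are near-identical copies, so its value may hold those of relatives. Ugt2b1 rose by 0.64 (SE 0.09), against the fall of the other male-biased calls, and missed the fold threshold without Atf7-/- IVF replicate 2 (0.59).

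Plasma proteins were called only upward. Of 27 complement genes 2 were called higher, of 31 coagulation genes 2 and of 24 acute-phase genes 1, with medians of 0.12, 0.10 and -0.02. The acute-phase count was 2 without Atf7-/- IVF replicate 2 or WT natural mating replicate 3. Apcs, serum amyloid P, read 11.01 to 11.58 (median 11.30) with IVF and 9.69 to 10.50 (median 10.37) without, an effect of 1.05 (SE 0.11, adjusted p = 4.15e-04), with no overlap. Mbl1, a mannose-binding lectin of complement, rose by 0.79 (SE 0.13), C9, the pore former of complement, by 0.83 (SE 0.16), F13b, the carrier subunit of factor XIII, by 0.67 (SE 0.09), and Pros1, the anticoagulant protein S, by 0.66 (SE 0.07). Interferon-stimulated genes had 3 of 26 called lower and a median of -0.24. Cxcl10, a T cell-attracting chemokine, was at 6.58 to 7.41 (median 6.74) with IVF and 7.56 to 9.13 (median 8.79) without, an effect of -1.65 (SE 0.24, adjusted p = 0.00189). Usp18, which removes ISG15, fell by 0.72 (SE 0.10), by more in Atf7-/- (called difference -0.91, lost without Atf7-/- IVF replicate 3 at an adjusted p of 0.0521). Oasl2, another interferon target, fell by 0.65 (SE 0.14) and missed the fold threshold without WT IVF replicate 3 (-0.60) or WT natural mating replicate 3 (-0.56). None of 21 genes of antigen presentation was called in limma, and 8 of them had an unadjusted p under 0.05, against 31.2% of all genes. Without WT natural mating replicate 1, 3 of them were called lower, and without Atf7-/- IVF replicate 1, 1 was.

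Ifi202b, a DNA sensor of the Ifi200 family whose level differs between mouse strains, was called higher in the average (1.07, SE 0.12, adjusted p = 4.69e-04) on WT arrays alone. Its mean was 5.26 in WT IVF livers and 3.04, 3.06 and 2.97 in the WT natural mating, Atf7-/- natural mating and Atf7-/- IVF livers, a called difference between genotypes of -2.31. Of 8 measured genes listed as differing between strains, it was the only one called in the average. Whether the animals of the groups differ in strain was not tested.

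Among 31 measured imprinted genes, which are expressed from 1 parental copy and are often studied after embryo culture, 2 were called higher and none lower (1 lower without Atf7-/- natural mating replicate 3), with a median of -6.3e-04. Igf2, the fetal growth factor expressed from the paternal copy, read 6.85 to 7.45 (median 7.19) with IVF and 6.27 to 6.6 (median 6.58) without, an effect of 0.63 (SE 0.10, adjusted p = 0.00289). The groups did not overlap, but the value missed the fold threshold without Atf7-/- IVF replicate 1 or WT natural mating replicate 3 (both 0.58). Ndn, a paternally expressed MAGE family gene, was at 6.53 to 7.10 (median 6.71) against 5.77 to 6.12 (median 5.95), an effect of 0.80 (SE 0.10, adjusted p = 0.00105). Mest, another, was not called in the average (0.25). It rose by 0.96 in WT and read -0.46 in Atf7-/-, a called difference of -1.42 that was lost without Atf7-/- IVF replicate 2 or 3, Atf7-/- natural mating replicate 3 or WT natural mating replicate 1 (adjusted p = 0.0562 to 0.0625). Of 13 genes of fetal liver and their repressors, Igf2 and Lpl were called higher and Alpl, the tissue-nonspecific alkaline phosphatase, lower (-1.37, SE 0.15), while Afp, alpha-fetoprotein, read -0.09. Hhex, a transcription factor of liver bud and adult hepatocytes, rose by 0.75 (SE 0.12).

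Sugar metabolism had 4 of 23 genes called lower and 1 higher. Ppp1r3g, a glycogen-targeting subunit of protein phosphatase that feeding regulates, was at 6.61 to 6.93 (median 6.79) with IVF and 7.75 to 8.74 (median 8.2) without, an effect of -1.45 (SE 0.16, adjusted p = 4.67e-04). Its relative Ppp1r3c moved the other way, from 8.05 to 9.45 (median 8.71) without to 9.45 to 10.31 (median 10.07) with IVF, an effect of 1.29 (SE 0.23, adjusted p = 0.00442). Pck1, the rate-limiting enzyme of gluconeogenesis, fell by 0.67 (SE 0.13) and missed the fold threshold without Atf7-/- IVF replicate 2 (-0.57). Pgd, of the pentose phosphate pathway, had an averaged -0.70 (SE 0.16), made of 0.27 in WT and -1.67 in Atf7-/-.

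Amino acid and nucleotide genes were called seldom. Of 28 genes of the urea cycle and amino acid breakdown only Gpt2, mitochondrial alanine transaminase, was called (-1.0, SE 0.13), with a rise added without WT natural mating replicate 3. Of 24 genes of branched-chain amino acid breakdown none was called in limma. In that list 21 effects were above 0 (median 0.22), and 17 genes (70.8%) had an unadjusted p under 0.05, against 31.2% of all genes. Bckdha, a subunit of the branched-chain keto acid dehydrogenase, lay on the other side, at -0.35 (SE 0.09, adjusted p = 0.0231). Without Atf7-/- IVF replicate 1 a member was called higher, and without Atf7-/- IVF replicate 2 a member was called lower. Chdh, choline dehydrogenase, lay at 8.90 to 9.17 (median 9.03) with IVF and 9.64 to 9.91 (median 9.81) without, an effect of -0.75 (SE 0.06, adjusted p = 1.44e-04). Bhmt, which uses the betaine that Chdh makes, was called higher on a probe set numbered among chromosome 18 genes (0.69), while the probe set on its own chromosome, 13, gave 0.38 (SE 0.20, adjusted p = 0.232). None of 12 genes of de novo purine synthesis was called in limma (4 at an unadjusted p under 0.05), and 1 was called higher without Atf7-/- IVF replicate 1, WT IVF replicate 2 or WT natural mating replicate 3. In purine salvage Pnp, purine nucleoside phosphorylase, rose by 0.67 (SE 0.09) and Nt5e, the ectonucleotidase CD73, by 0.93 (SE 0.11), the latter with 1.67 in WT and 0.19 in Atf7-/-.

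Each list of stress genes had 1 to 3 called members. Of 21 genes of the ATF2 family, its partners and the p38 pathway, 2 were called lower and none higher. Atf3, an immediate stress-response factor, read 6.19 to 6.57 (median 6.37) with IVF and 6.81 to 7.30 (median 7.08) without, an effect of -0.68 (SE 0.08, adjusted p = 8.67e-04). Dusp1, a phosphatase of MAP kinases, had -1.35 (SE 0.18) in the average, from -0.35 in WT, not called, and -2.35 in Atf7-/-. Of 19 measured targets of ATF4, the factor of the integrated stress response, Atf3 was the only call, while 18 effects were below 0 (median -0.29). The count of falls was 7 without WT natural mating replicate 3, and 2 without Atf7-/- IVF replicate 2, Atf7-/- natural mating replicate 2 or WT IVF replicate 1 or 2. Of 23 genes of the unfolded protein response, 2 were called higher and 1 lower (median 0.25). Dnajb11, a cochaperone of the endoplasmic reticulum, rose by 0.76 (SE 0.15), and Herpud1, which acts in degradation of misfolded proteins there, fell by 0.73 (SE 0.11). Hspa5, the chaperone BiP, rose by 0.61 (SE 0.18, adjusted p = 0.0391), a call lost without any of 10 arrays and kept only when WT natural mating replicate 3 or WT IVF replicate 2 was the one left out. The count of rises was 6 without WT natural mating replicate 3 and 1 without each other array except WT IVF replicate 2. Of 19 heat shock chaperones 1 was called higher, Hspe1, and 1 lower, Hspb1 (-0.68, SE 0.12). Hspb1 fell just short of the fold threshold without Atf7-/- IVF replicate 3 or WT natural mating replicate 3, and 2 falls were called without Atf7-/- IVF replicate 2 or WT natural mating replicate 1.

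Of 23 genes of H3K9 methylation and heterochromatin, a process in which ATF7 is known to act, Cbx3, the HP1 gamma protein, was the only call. Its brightest probe set gave 1.08 (SE 0.10) but is numbered among chromosome 14 genes, and the one on Cbx3's chromosome, 6, gave 0.53 (SE 0.09, adjusted p = 0.00296), below the fold threshold. Of 12 DNA methylation genes none was called in limma (5, or 41.7%, at an unadjusted p under 0.05, against 31.2% of all genes). Hspe1, the partner of mitochondrial HSP60 named above, gave 0.70 on a probe set numbered among chromosome 18 genes and 0.46 (SE 0.11) on its own chromosome, 1.

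Of 45 ribosomal proteins 5 were called higher, of 41 proteasome subunits 3 and of 54 spliceosome genes 2, and none lower. Their medians were 0.25, 0.20 and 0.15. Of the ribosomal proteins, 2 were called higher in WT and 17 in Atf7-/-, and 1 lower in each, with medians of 3.85e-04 and 0.39. Spliceosome genes had 2 higher in WT and 11 in Atf7-/-, and proteasome subunits 7 and 5, with none lower. Among all genes 3.27% were called higher in WT and 2.31% in Atf7-/-. The difference was called above 0 in 13 ribosomal, 7 spliceosome and 2 proteasome genes, against 1.47% of all genes. It was below 0 in 5 proteasome genes, against 4.23%. Of 72 subunits of oxidative phosphorylation (median 0.13) 1 was called higher, a share near the 1.44% of all genes. It was Uqcrb, of complex III (0.61, SE 0.10), whose call was lost without Atf7-/- IVF replicate 2 or 3, Atf7-/- natural mating replicate 1, WT IVF replicate 3 or WT natural mating replicate 2. A subunit was called lower without Atf7-/- IVF replicate 1, Atf7-/- natural mating replicate 2, WT IVF replicate 2 or WT natural mating replicate 3. The difference between genotypes was called above 0 in 13 of the 72 subunits and below 0 in 6. The averaged ribosomal count was 3 without WT IVF replicate 3. The averaged spliceosome count was 4 without that array or Atf7-/- IVF replicate 1, and 1 without Atf7-/- IVF replicate 2. Many of these genes have processed copies in the genome, which touches the values of Rpl38 above. Psma3, a proteasome subunit, was called on each of its 3 probe sets, at 0.89 on the brightest and 0.83 (SE 0.12) on the one at its own chromosome, 12. Rps20 rose by 0.60, at the threshold, and lost its call without Atf7-/- IVF replicate 3, Atf7-/- natural mating replicate 3, WT IVF replicate 3 or WT natural mating replicate 1 (0.58 to 0.59).

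DNA replication had 6 of 31 genes called higher and a median of 0.31, and mitosis 2 of 43 higher, 1 lower and a median of 0.43. The replication median was 0.41 in WT and 0.11 in Atf7-/-, and the mitosis median 0.93 and -0.15. In WT each list had 7 genes called higher, against 3.27% of all genes. In Atf7-/- each had 1 higher and 1 lower, against 2.31% and 4%. The difference was called below 0 in 2 replication genes and 1 mitosis gene, against 4.23% of all genes. The averaged counts rested on single arrays. As each array was left out, the replication count ranged from 1 to 7 and that of higher mitosis genes from 1 to 6. Each moved by over 1.5 times without 9 of the 12 arrays, which were all but Atf7-/- IVF replicates 1 and 3 and WT natural mating replicate 2 for replication, and all but Atf7-/- IVF replicates 2 and 3 and WT natural mating replicate 3 for mitosis. Gins1, of the replicative helicase, was the replication gene called throughout, at 6.48 to 7.27 (median 6.77) with IVF and 5.79 to 6.21 (median 6.02) without, an effect of 0.83 (SE 0.15, adjusted p = 0.00536). Cks2, a cyclin-dependent kinase subunit, gave 1.02 on a probe set numbered among chromosome 15 genes and 0.58 (SE 0.13) on its own chromosome, 13, which is below the threshold. Ccnd1, cyclin D1, fell by 0.97 (SE 0.23).

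Markers of the other cells of liver had few calls. None of 11 cholangiocyte, 20 sinusoidal endothelial or 12 exocrine pancreas markers was called in limma. At an unadjusted p under 0.05 were 1, 9 and 2 of them (9.09%, 45% and 16.7%), against 31.2% of all genes. A cholangiocyte marker was called lower without WT natural mating replicate 3. Of 20 Kupffer cell and macrophage markers, Cd209f, a C-type lectin, was called, at 6.46 to 8.32 (median 7.66) with IVF and 4.30 to 6.71 (median 5.59) without, an effect of 2.05 (SE 0.24, adjusted p = 6.45e-04). It rose by 3.26 in WT, and the 0.85 in Atf7-/- was not called (difference -2.41). The median of that list was -0.02. Falls were called for 2 of its members without Atf7-/- IVF replicate 1, Atf7-/- natural mating replicate 2 or WT natural mating replicate 1, and for 1 without Atf7-/- IVF replicate 2, WT IVF replicate 2 or WT natural mating replicate 2. Of 21 stellate cell and fibroblast markers only Lum, a matrix proteoglycan, was called (0.65, SE 0.17, adjusted p = 0.0230), and not without Atf7-/- IVF replicate 2, Atf7-/- natural mating replicate 1 or 3, WT IVF replicate 2 (adjusted p = 0.0502 to 0.0559) or WT natural mating replicate 3 (0.52). The stellate count rose to 5 without WT natural mating replicate 2 and to 4 without replicate 1 of that group. It was 3 without Atf7-/- natural mating replicate 2, 2 without replicate 1 of either IVF group, and 0 when WT IVF replicate 2 or WT natural mating replicate 3 was left out. The mean level of those 21 markers was 8.61 to 8.88 in WT and 8.77 to 8.83 in Atf7-/- with IVF, and 8.02 to 8.45 and 8.52 to 8.78 without. Ms4a1, the B cell protein CD20, rose by 0.82 (SE 0.14) and Ngp, a neutrophil granule protein, by 0.96 (SE 0.20), each the only call among 19 lymphocyte and 15 neutrophil markers. Leaving out WT natural mating replicate 3 raised the lymphocyte count to 4, leaving out WT IVF replicate 2 to 3, and leaving out Atf7-/- natural mating replicate 1 to 2.

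The groups of genes whose effects cancel are the counterpart of the average. Of 18 measured genes of mevalonate and cholesterol synthesis, 4 were called higher in WT and none lower, 12 were called lower in Atf7-/- and none higher, and the difference was called in 13, all lower in Atf7-/-. Over all genes 3.27% were called higher and 0.953% lower in WT, 2.31% higher and 4% lower in Atf7-/-, and the difference was above 0 in 1.47% and below 0 in 4.23%. The WT count was unstable, at 0 without any 1 WT IVF array or WT natural mating replicate 2, 1 without WT natural mating replicate 1, 2 without Atf7-/- natural mating replicate 3 and 7 without Atf7-/- IVF replicate 2. The Atf7-/- count was 7 without Atf7-/- IVF replicate 3, and the count of the difference stayed between 11 and 15. The average called only Lss, lanosterol synthase (-0.86, SE 0.20), or 3 genes without Atf7-/- IVF replicate 2 or WT natural mating replicate 1 and 2 without Atf7-/- natural mating replicate 1. The list's median was 0.53 in WT, -1.21 in Atf7-/- and -0.33 in the average. Msmo1, a sterol demethylase, had 1.2 in WT, -1.2 in Atf7-/- and 0.00 on average (SE 0.21), with group means of 9.23 and 10.43 in WT, natural mating before IVF, and 10.49 and 9.29 in Atf7-/-. Sqle, squalene epoxidase, differed most, with 1.34 in WT, not called, and -2.49 in Atf7-/- (difference -3.83, adjusted p = 0.0317). The Sqle difference kept its call without Atf7-/- IVF replicate 2, Atf7-/- natural mating replicate 1 or WT natural mating replicate 3, and lost it without each of the other 9 arrays (adjusted p = 0.0514 to 0.0778). Hmgcs1, which feeds the pathway, had 1.0 and -0.87, the latter not called (difference -1.88), and Srebf2, its transcription factor, 0.33 and -0.68 (difference -1.01). Idi1 gave a difference of -2.78 on a probe set numbered among chromosome 2 genes. On its own chromosome, 13, Idi1 had 0.71 in WT and -0.81 in Atf7-/-.

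Small nucleolar RNAs, which guide chemical modification of ribosomal RNA, were called in the other order. Of 51 on the array, 20 were called lower in WT and none higher, 23 higher in Atf7-/- and none lower, and the difference was called in 33, all above 0. The shares of all genes were 0.953% lower in WT, 2.31% higher in Atf7-/- and 1.47% with a difference above 0. Their medians were -0.53 in WT, 0.59 in Atf7-/- and 0.03 in the average. Not all cancelled, since the average called 5 higher and 1 lower, against 1.44% and 1.31% of all genes. The rises were Snord118 (1.68), Snora73a and Snora73b (both 1.43, neighbours of like sequence that may share signal), Snord87 (0.89) and Snora41 (0.72), none of them called in WT, and the fall was Snora62 (-0.74), all named after their values were seen. The fall was lost without Atf7-/- IVF replicate 2 or 3, Atf7-/- natural mating replicate 1 or 2, WT IVF replicate 2 or WT natural mating replicate 3. The count of averaged rises ranged from 4 to 6 as each array was left out, so not all of the 5 held throughout. The WT count was 13 without WT IVF replicate 1. Those described next were chosen as the largest called in opposite directions. Snora44 fell by 1.65 in WT and rose by 2.22 in Atf7-/-, an average of 0.29 and a called difference of 3.88. Its group means were 10.46 and 8.81 in WT, natural mating before IVF, and 6.98 and 9.21 in Atf7-/-, so that the IVF groups lay between the natural mating groups. Snora33 (7.64 and 7.70 with IVF, 8.95 and 5.46 without, WT first) and Snora3 (10.70 and 10.77 with IVF, 12.37 and 9.13 without) had the same order. Vaultrc5, a vault RNA, fell by 1.96 in WT and rose by 1.31 in Atf7-/-. Malat1, a long nuclear RNA, fell by 0.83 in WT and rose by 1.10 in Atf7-/- (difference 1.93, average 0.14). Over all probe sets, values of WT IVF and Atf7-/- IVF arrays correlated at 0.982 to 0.988, and those of WT and Atf7-/- natural mating arrays at 0.973 to 0.978, a description with no test.

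**Figure D5:**
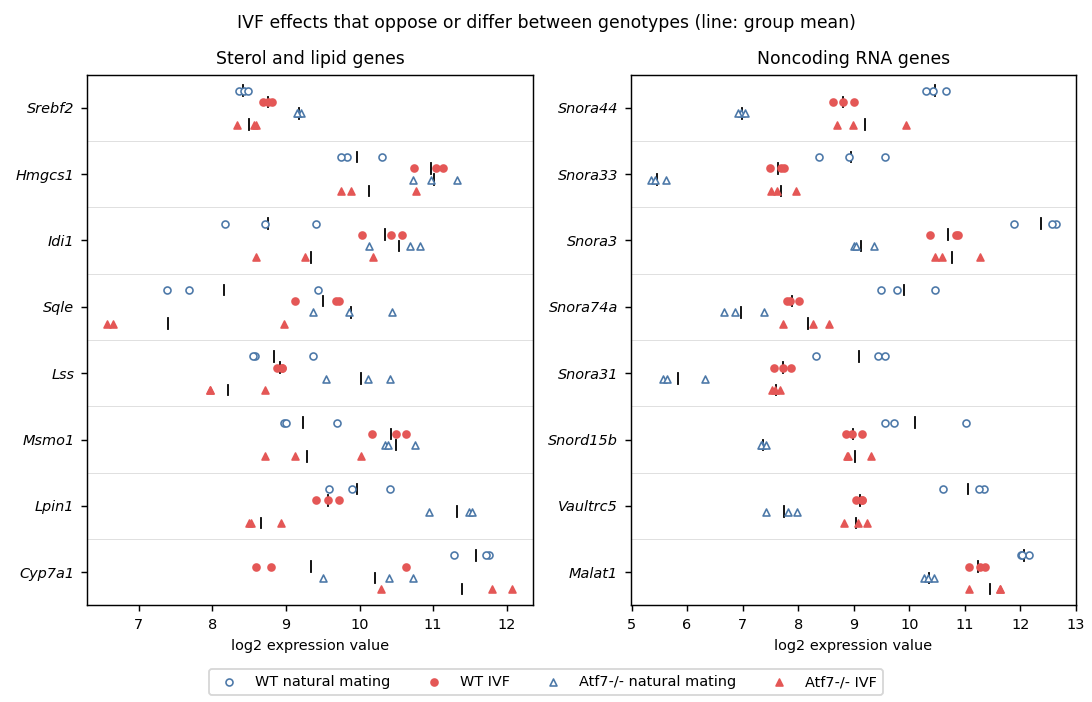
Log2 expression on each of the 12 arrays (horizontal axis) of sterol and lipid genes (left) and noncoding RNA genes (right) whose IVF effects oppose or differ between genotypes, with symbols for the 4 groups and a line at each group mean. For Snora44, Snora33 and Snora3 the IVF groups lie close together between the natural mating groups, whereas Msmo1 moves up in WT and down in Atf7-/-.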

How the data were processed

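Expression in 12 mouse livers was measured on the Affymetrix Mouse Gene 1.0 ST platform, with 1 array per animal. Log2 values of 34760 probe sets, which the authors normalized by RMA in affy (versions and genome build not given in the sources used here), were used as deposited. No scan dates or batches were given, and the number of arrays limits the precision. Gene symbols came from the platform's annotation, with 1 symbol for 21640 probe sets, several for 1321 and none for 11799. Of those with 1 symbol, 21553 were found in RefSeq and 0 symbols changed. Counts of genes and gene lists used the probe set with the highest mean over the 12 arrays.

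Groups of 3 arrays were taken from the labels. A linear model with 4 group means was fitted in limma 3.58.1 (R 4.3.3, 8 residual degrees of freedom, eBayes, Benjamini-Hochberg adjustment over all probe sets). Animals of a group were separate, from different mothers or recipients. The same replicate number in several groups did not pair the arrays. Named genes were the 15 largest rises and 15 largest falls whose 3 against 3 arrays did not overlap in either genotype, up to 6 called members and key members of each list, the genes most alike in both genotypes, and the 8 largest called in opposite directions. The members, lists and rules were chosen with earlier results of these data known. The check of probe set numbering against chromosomes was added after the values were seen. Promoters were taken from RefSeq GRCm38.p6. The script was tested on simulated data. H19 and Npas2 were not analysed here.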

Additional observations from a re-analysis of the deposited data

Results flagged for a closer look

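For 33 of the genes named above the IVF effect differed between the genotypes (limma, adjusted p from 2.45e-04 to 0.0426), so the averaged value stands for neither. The values are the effect in Atf7-/- minus that in WT, on the log2 scale, and no explanation was tested. Among clock genes the difference was -0.93 for Clock, -0.81 for Per1, 0.91 for Per2 and 1.83 for Per3. In sterol synthesis all differences were negative, with -1.01 for Srebf2, -1.88 for Hmgcs1, -2.78 for Idi1, -3.83 for Sqle, -1.90 for Lss and -2.41 for Msmo1. Other lipid genes had -2.26 for Lpin1, -1.86 for Lipg, -1.34 for Pltp, -2.05 for Mfsd2a and 1.23 for Apom, and the bile acid enzymes had 3.43 for Cyp7a1 and 0.97 for Akr1d1. Enzymes of other pathways had -1.17 for Cyb5r3, -1.94 for Pgd and -1.49 for Nt5e. Noncoding RNA genes were all positive, with 3.88 for Snora44, 3.54 for Snora33, 3.31 for Snora3, 3.27 for Vaultrc5 and 1.93 for Malat1. The remaining differences were -1.62 for Adgrf1, -2.41 for Cd209f, -2.0 for Dusp1, -2.31 for Ifi202b, -1.42 for Mest, 0.81 for Rps20, -1.98 for Serinc2 and -0.91 for Usp18. With 3 arrays a group, single arrays that stand apart were not looked for by a formal rule.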

How the results depend on the processing

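The number of calls depended most on the threshold. With an absolute log2 effect of at least 1 the averaged effect called 86 probe sets higher and 109 lower, the difference between genotypes 986, both genotypes 26 higher and 30 lower, and opposite directions 23. With no fold threshold these were 2744 and 2546 for the averaged effect, 367 and 231 in both genotypes and 242 in opposite directions. At an adjusted p of at most 0.01, 342 were called lower, 750 for the difference, 49 and 42 in both genotypes and 41 in opposite directions. Over probe sets with 1 gene symbol, 301 were called lower and 61 in opposite directions. With the brightest probe set of each gene fitted alone, 301 were called higher, 276 lower, 1410 for the difference and 53 in opposite directions. Both of these settings test fewer probe sets. Centring each array on its median gave 683 higher and 471 lower (59.2% higher, against 50.5%), and an additive model without the genotype difference 465 and 449. These counts do not say which probe sets were called.

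Without each array in turn, the averaged effect called 477 to 775 probe sets higher and 443 to 632 lower, and the difference 1443 to 2482. Both genotypes called 75 to 168 higher and 66 to 130 lower, and 82 to 156 in opposite directions. The count called higher in both was 81 without Atf7-/- IVF replicate 2 and 75 without WT IVF replicate 3. The difference of array medians ranged from -0.0384 to -0.0225, the former without Atf7-/- IVF replicate 1 (exact permutation p = 0.02). With the replicate block, 556 and 560 were called in the averaged effect, 2020 for the difference, 119 and 95 in both genotypes and 114 in opposite directions. Deviations of same-numbered arrays correlated at -0.124 to 0.239, with 3 of 18 pairs above 0.1, so the numbers gave no pairing.

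Single genes were followed in 5 settings and without each array in turn, not under the other settings above. Of 217 named and listed genes, none was called in the opposite direction there, and 12 lost their call under 1 or more of the 5 settings. Of those in the text, Igf2 had 0.59 with array weights, Akr1d1 0.57 and Rps20 0.57 after a further quantile normalization, and Cpt1a and Fgf21 were called with array weights (-0.65 and -1.05). Snora33 was called higher in the average without WT natural mating replicate 2 (0.61).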
